A study of Sus scrofa with 16 samples.

Results

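Naive or recirculating T cells, read from the RNA of the genes that steer T cells through lymph nodes and blood, made up 148 of 7061 single cells kept from the small intestine of pigs. They were chosen by their own counts of unique molecular identifiers (UMIs, which count RNA molecules). A member had at least 1 CD3E UMI, no TRDC UMI, no UMI of the B cell genes CD79B and MS4A1, fewer than 3 UMIs in the sum of the cell cycle genes TOP2A, CENPF and TPX2, and at least 2 UMIs in the sum of CCR7, S1PR1 and LEF1. Cells that met the same conditions with a CCR7, S1PR1 and LEF1 sum below 2 are called other T cells here, and there were 1527 of them. DUOD gave 2 members, JEJ gave 6, IPP gave 111 and NoPP gave 29.

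The study profiled cells of the small intestine from 7.5-week-old mixed-breed female pigs with droplet sequencing (10x Chromium, 3′ version 3 chemistry). DUOD was the duodenum next to the pylorus, and JEJ was jejunum farther along. IPP was ileum dissected to contain Peyer's patches, the clusters of lymphoid follicles in its wall. NoPP was ileum dissected to lack them. The cells came off the tissue in dithiothreitol and then EDTA, which release the epithelium and the lymphocytes in it, and viable cells were enriched on Percoll. The labels list 4 titles for each region, but the cells of those titles cannot be told apart in the matrices, so each region is 1 sample. No difference between regions could be tested, and the intervals given are exact 95% intervals for counting error only.

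A naive T cell circulates between blood and lymphoid tissue until it meets its antigen. CCR7 is the chemokine receptor that brings it into lymph nodes and Peyer's patches, and S1PR1 senses the lipid gradient by which it leaves again. LEF1 and TCF7 are transcription factors of naive and memory T cells, and KLF2 is the factor that switches on S1PR1 in mouse T cells. T cells that settle in the gut epithelium of mice lose KLF2 and S1PR1, and they carry the integrin CD103 (ITGAE), the gut-homing receptor CCR9 and the granule proteins of killing.

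Depth differed between the classes. The members' median was 6377 UMIs per cell (DUOD), 4192.5 (JEJ), 4412 (IPP) and 4726 (NoPP), whereas that of other T cells was 2575, 2627.5, 3057 and 2881. The share of mitochondrial UMIs was lower in the members, at a median of 7.77% in IPP members against 11.5% in other T cells of IPP, and 8.40% in NoPP members against 12.1% in other T cells of NoPP. No member barcode was within the filters in another library, and 6 barcodes of other kept cells were. RNA of other cell types was sparse in most members but high in a few. Of the B cell list, no member of any library had 3 or more UMIs. The rule had already removed cells with a CD79B or MS4A1 UMI, so this count is no separate measure of B cell RNA. Of the epithelial list, 12 of 111 IPP members (10.8%) and 64 of 489 other T cells of IPP (13.1%) had 3 or more, as did 3 of 29 NoPP members and 51 of 637 other T cells of NoPP. In IPP members, 132 of 264 epithelial UMIs and 41 of 98 UMIs of the myeloid list lay in 1 cell for each list. Fewer than 3 UMIs over the B cell, epithelial and myeloid lists were found in 92 of 111 IPP members and 26 of 29 NoPP members. The same held for 395 of 489 other T cells of IPP. The part of this RNA in the results below was not tested beyond the values given beside them.

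The members' share of the T cells was highest in IPP. They were 2 of 167 T cells in DUOD, or 1.20% (0.145 to 4.26), and 6 of 242 in JEJ, or 2.48% (0.915 to 5.32). In IPP they were 111 of 600, or 18.5% (15.5 to 21.8), and in NoPP 29 of 666, or 4.35% (2.94 to 6.19). The interval of IPP lies above those of the other libraries, and the intervals of DUOD, JEJ and NoPP overlap. Since a deeper cell reaches 2 UMIs more easily, each cell was also thinned to 1000 UMIs, the least any kept cell had. All conditions were then applied again to the thinned counts. Cells that lost their CD3E UMIs left the T cells, and cells that lost their TRDC UMIs could enter, so these are not the same T cells. The shares were then 0 of 129 in DUOD, which allows up to 2.33% (a limit of 3 cells of the total, used for counts of 0), 3 of 205 in JEJ (1.46%; 0.303 to 4.22), 32 of 498 in IPP (6.43%; 4.44 to 8.95) and 6 of 544 in NoPP (1.10%; 0.406 to 2.39). IPP also gave the most B cells, which carry CCR7 as well: 229 of 1171 B cells of IPP (19.6%) reached the same CCR7, S1PR1 and LEF1 sum, against 0 of 224 epithelial cells of IPP, which allows up to 1.34%.

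**Figure D1:**
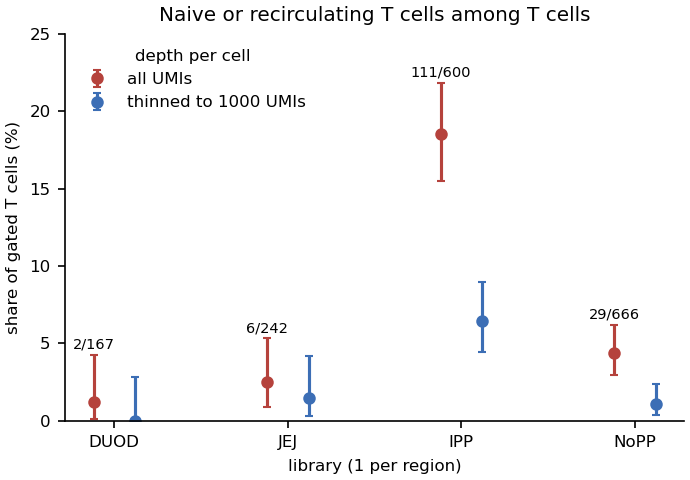
Share of T cells that were naive or recirculating T cells (percent, vertical axis) in each library, with all UMIs (red, cells over T cells written above) and after thinning every cell to 1000 UMIs (blue). Bars are exact 95% binomial intervals. IPP stands at 18.5% with all UMIs and at 6.43% after thinning, above the other 3 libraries in both.

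The gate genes were present together in many cells. Of the 111 IPP members, 43 had UMIs of CCR7, S1PR1 and LEF1 at once, 24 of CCR7 and S1PR1, 12 of CCR7 and LEF1, and 9 of LEF1 and S1PR1. CCR7 alone let in 9, S1PR1 alone 9 and LEF1 alone 5. Of the 29 NoPP members, 4 had all 3 genes and 8 had S1PR1 alone. CCR7 was at 558 CPM (its UMIs per 1000000 UMIs of the summed class) in IPP members and 288 CPM in NoPP members, S1PR1 at 528 and 408 CPM, and LEF1 at 259 and 181 CPM. These levels follow from the rule and describe the members only. At its threshold, the 19 IPP cells with a sum of 2 had 117 CPM of KLF2, 620 of PLAC8 and 8215 of CCL5, and the 39 IPP cells with a sum of 1, just outside, had 71.5, 567 and 8004 CPM.

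KLF2 had the highest ratio of members to other T cells among the genes at 50 CPM or more outside the gate, in IPP and in NoPP. In JEJ it was at 788 CPM in the 6 members and 5.94 CPM in other T cells, and in DUOD at 78.4 CPM in the 2 members, from 1 UMI, and 22.4 CPM in other T cells. In IPP it was at 552 CPM in members against 15.3 CPM in other T cells, a 36.2-fold higher level (24.4 to 55.8). In NoPP it was at 301 CPM against 10.2 CPM, 29.5-fold higher (17.3 to 51.6). Members thus had more KLF2 than other T cells in IPP, NoPP and JEJ, while the DUOD value, from 1 UMI, cannot tell. A KLF2 UMI was found in 61 of 111 IPP members (55.0%) and 13 of 29 NoPP members (44.8%), against 10 of 489 (2.04%) and 12 of 637 (1.88%) other T cells. Epithelial cells of IPP, at a median of 14871.5 UMIs, had one in 6.70% of cells, epithelial cells of DUOD in 38.5%, and B cells, which also use KLF2, in 27.2% in IPP and 40.0% in NoPP.

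KLF2 also varied with the number of gate UMIs in a cell. In IPP it was at 7.70 CPM in T cells with a gate sum of 0, 71.5 CPM at 1, 117 CPM at 2 or 3 and 746 CPM at 4 or more, and in NoPP at 10.2, 10.0, 181 and 505 CPM. CCL5, a chemokine of effector T cells, ran the other way, at 21888, 8004, 4503 and 391 CPM in IPP and 22285, 10933, 12876 and 3426 CPM in NoPP. ITGAE was at 378, 114, 67.6 and 19.1 CPM in IPP and at 375, 221, 74.5 and 72.1 CPM in NoPP. TCF7 showed no such run, at 197, 291, 160 and 325 CPM in IPP and 151, 221, 160 and 270 CPM in NoPP. T cells with no gate UMI were shallower, at a median of 2958 UMIs in IPP and 2849 in NoPP, than those with 1 or more, whose medians were 4016 to 4610.5 and 4700.5 to 5144.

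**Figure D2:**
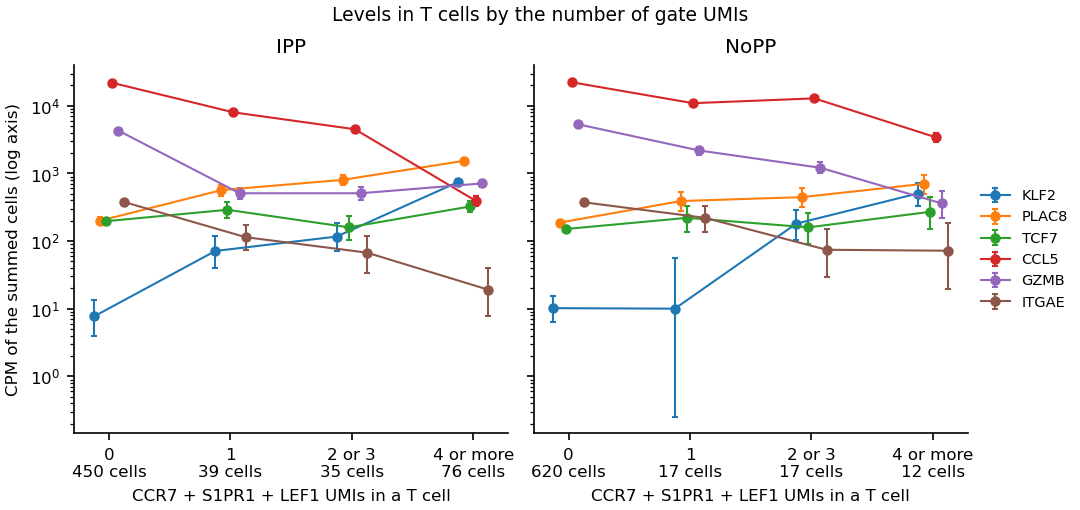
Level of 6 genes (CPM of the summed cells, log axis) in T cells of IPP and NoPP grouped by their summed CCR7, S1PR1 and LEF1 UMIs (horizontal axis, with cells per group). Bars are exact 95% Poisson intervals. KLF2 in IPP stands at 7.70 CPM with a sum of 0 and 746 CPM with 4 or more, and CCL5 at 21888 and 391 CPM.

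In IPP KLF2 was found most often in cells where S1PR1 came with CCR7 or LEF1. The counts of NoPP ran the same way, from few cells. The few members of JEJ did not differ this way, with KLF2 in 3 of 4 that had all 3 gate genes and 2 of 2 with S1PR1 alone. In IPP a KLF2 UMI was present in 29 of 43 members with all 3 gate genes (67.4%) and 24 of 33 with S1PR1 and either CCR7 or LEF1 (72.7%). It was present in 5 of 26 members that had CCR7 or LEF1 without S1PR1 (19.2%; 6.55 to 39.4), and in 3 of 9 with S1PR1 alone. The corresponding KLF2 levels were 825, 497, 243 and 113 CPM. In NoPP the counts were 4 of 4, 4 of 7, 4 of 10 and 1 of 8, at 831, 501, 241 and 19.2 CPM. The intervals of 4 of 7 (18.4 to 90.1%) and 4 of 10 (12.2 to 73.8%) overlap widely. These groups were formed from the gate UMIs, with which KLF2 also rose, so the pairing with S1PR1 was not separated from the gate sum.

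Most members with S1PR1 alone differed from the rest. Their CCL5 UMIs per cell were 147, 141, 123, 97, 87, 58, 3, 0 and 0 in IPP, and 237, 230, 175, 103, 103, 75, 61 and 1 in NoPP. The only such cell of DUOD had 151 CCL5 and 31 GZMB UMIs, and the 2 of JEJ had 1 and 0 CCL5 UMIs. In IPP these 9 cells held 656 of the 876 CCL5 UMIs of all members, and in NoPP these 8 cells held 985 of 1400. In the 102 IPP members with CCR7 or LEF1, CCL5 was at 454 CPM, against 14854 CPM in the 9. In NoPP the values were 4266 CPM in 21 members with CCR7 or LEF1, of whose UMIs 68.2% lay in 1 cell, and 18891 CPM in the 8. Most S1PR1-only members of IPP and NoPP, and the only one of DUOD, thus had the CCL5 of other T cells and less KLF2 than the remaining members. The name naive is not borne out by these cells, and whether they recirculate was not tested. Nor is the name settled for the CD8B members of IPP, most of which had CCR7 or LEF1. A GZMB UMI was found in 24 of those 25 cells, as described below.

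A count of 10 CCL5 UMIs, chosen after the values were seen, separated the members into cells of unlike content. In IPP 10 of 111 members reached it, 6 with S1PR1 alone and 4 with CCR7 or LEF1, against 394 of 489 other T cells. In NoPP 11 of 29 members did, against 599 of 637 other T cells. The 10 IPP members had KLF2 in 2 cells, ITGAE in 5, NKG7 in 9 and CD4 in none, while the other 101 had KLF2 in 59, ITGAE in 5, NKG7 in 28 and CD4 in 27. GZMB did not separate them this way, with a UMI in 7 of the 10 and 58 of the 101. The 11 NoPP members had CCR7 in none, KLF2 in 2 and CD8B in 10, while the other 18 had CCR7 in 16, KLF2 in 11 and CD8B in 6.

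**Figure D3:**
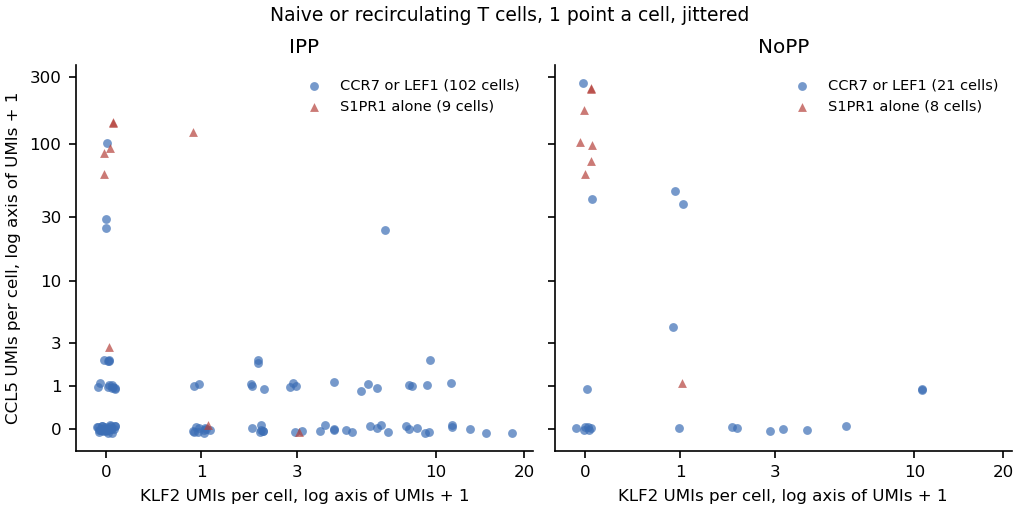
KLF2 UMIs (horizontal axis) and CCL5 UMIs (vertical axis) of each naive or recirculating T cell of IPP and NoPP, both on log axes of UMIs plus 1, with points jittered. Circles are cells with CCR7 or LEF1 and triangles cells with S1PR1 alone. Of the 9 triangles of IPP 6 lie at 58 or more CCL5 UMIs, and of the 8 of NoPP 7 lie at 61 or more.

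Against the other T cells of IPP, 59 of 2439 genes at 50 CPM or more in the mean of both classes were at least 2-fold higher in members (2.42%) and 129 were at least 2-fold lower (5.29%). In NoPP, whose 29 members fell short of the minimum of 30 set for this comparison and are given beside it, 79 of 2498 genes were higher (3.16%) and 155 lower (6.2%). In both ileal libraries the same way, 29 of 2466 were higher (1.18%) and 64 lower (2.6%). The lowest ratios included genes of the epithelium: REG4, TFF3, AGR2, CLCA1 and SPINK4, which goblet cells make, were among the 12 lowest in IPP. TFF3 was at 71.9 CPM in IPP members against 2406 CPM in other T cells, where 44.7% of its UMIs lay in 1 cell. With cells of 3 or more UMIs of other types left out, its log2 ratio was 0.26 and that of REG4 was -1.13. The lists described next were counted over their genes at that level. The rule chose the members on RNA of the same cells, so these counts and all ratios between members and other T cells are a description.

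Of 7 genes listed for naive T cells, KLF2 and FOXP1, a factor that holds T cells quiescent, were 2-fold higher in IPP. TXNIP, which is not a transcription factor, was lower, at 49.2 CPM in members against 111 CPM in other T cells. It was higher after thinning, with a log2 ratio of 0.11. TCF7 was at 274 CPM in IPP members against 208 CPM in other T cells (1.32-fold; 1.08 to 1.60), and at 201 against 154 CPM in NoPP. BACH2, a repressor of effector genes, was below the level set for calling, at 54.8 CPM in IPP members against 7.91 CPM (6.93-fold; 3.55 to 14.2), and at 33.5 against 4.18 CPM in NoPP. TCF7 was thus shared by both classes, whereas KLF2 and BACH2 were concentrated in the members.

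Of 5 genes of lymph node entry and egress reported outside the gate in IPP, KLF2 was higher and the integrin chain ITGB1 lower. GPR183, the oxysterol receptor that positions cells at the edge of follicles, was at 278 CPM in IPP members against 163 CPM.

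Several genes outside these lists stood beside KLF2 at the top of the ratios. YBX3, a cold-shock domain protein, was at 297 CPM in IPP members against 11.9 CPM in other T cells (25.0-fold; 15.8 to 41.5), and at 107 against 4.64 CPM in NoPP. RASA3, which restrains RAP1 and RAS, was at 108 against 10.2 CPM in IPP and 107 against 5.57 CPM in NoPP. PLAC8 was at 1312 CPM in IPP members against 244 CPM (5.39-fold; 4.77 to 6.09), at 542 against 197 CPM in NoPP, at 863 against 198 CPM in JEJ and at 627 against 179 CPM in DUOD. It was found in 99 of 111 IPP members and 197 of 489 other T cells, more members than had YBX3 (56), RASA3 (35), IFITM3 (73) or S100A4 (38). IFITM3, an antiviral membrane protein, was 5.73-fold higher in IPP (4.58 to 7.20) and 7.74-fold higher in NoPP (4.75 to 12.4). S100A4 was 4.39-fold higher in IPP (3.32 to 5.81) and 4.77-fold higher in NoPP (3.31 to 6.75), but it was level within CD8B cells of IPP, with a log2 ratio of 0.010. Of its 122 UMIs in IPP members, 32 lay in 1 cell with S1PR1 alone and 58 CCL5 UMIs. With at least 2 UMIs of CCR7 and LEF1 required, its log2 ratio in IPP was 1.09.

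A few signalling genes differed. LTB, a cytokine of lymphoid tissue, was at 376 CPM in IPP members against 138 CPM, and at 355 against 46.4 CPM in NoPP, but within CD4 cells of IPP it was lower in members. CD28, the costimulatory receptor of naive T cells, was at 138 against 35.0 CPM in IPP (3.94-fold; 2.77 to 5.62) and 53.5 against 22.7 CPM in NoPP, from 8 UMIs. Of 15 T cell receptor and signalling genes in IPP, CD28 was the only one 2-fold higher and TRAT1 the only one 2-fold lower. IL7R, the receptor for the survival cytokine of naive and memory T cells, was at 340 against 200 CPM in IPP (1.71-fold; 1.42 to 2.05) and 207 against 172 CPM in NoPP. Of 9 cytokine receptor genes in IPP, IL6R was higher at 108 against 48.0 CPM, and IL2RB lower at 51.0 against 151 CPM. The higher IL6R was not found within CD4 cells, with a log2 ratio of -0.037, or within CD8B cells, with -0.80.

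Of 7 genes of the tissue-resident state, ITGAE, RUNX3 and LITAF were 2-fold lower in IPP and CD69 was higher, and in NoPP ITGAE and RGS2 were lower and CD69 higher. ITGAE was at 34.0 CPM in IPP members against 347 CPM in other T cells, 10.2-fold lower (6.39 to 17.3), and at 73.6 against 368 CPM in NoPP, 4.99-fold lower (2.78 to 10.0). CD69, which antagonises S1PR1 at the cell surface, was at 408 CPM in IPP members against 168 CPM (2.43-fold; 2.03 to 2.91) and at 281 against 117 CPM in NoPP. After thinning to 1000 UMIs, which changes the members, CD69 was lower in IPP members, with a log2 ratio of -0.29. CCR9, which brings cells to the small intestine, was at 39.7 CPM in IPP members against 206 CPM, 5.20-fold lower (3.35 to 8.50), and at 174 against 271 CPM in NoPP. The integrin chains ITGB7 and ITGA4 were within 2-fold in both libraries.

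Most granule and killing genes were lower over all members, though several were not within CD4 cells, where counts were low. Of 15 cytotoxic and NK-type genes in IPP, 12 were at least 2-fold lower and none higher, with a median ratio of 0.168 beside 0.943 over all genes, and in NoPP 10 of 15 were lower, with a median ratio of 0.380 beside 1.00. GNLY, which perforates microbial membranes, was at 49.2 CPM in IPP members against 1352 CPM in other T cells, 27.5-fold lower (18.7 to 42.2), and at 60.2 against 1051 CPM in NoPP. GZMA_ENSSSCG00000016902 and GZMA_ENSSSCG00000016903, near-identical copies of granzyme A whose reads may be split uncertainly, were 30.1-fold and 22.5-fold lower in IPP and 5.90-fold and 5.80-fold lower in NoPP. CCL5 was at 1656 CPM in IPP members against 20240 CPM, and at 9369 against 21760 CPM in NoPP, where the S1PR1-only members weigh more. Within CD4 cells of IPP the log2 ratio was above 0 for GZMB (2.22), GZMA_ENSSSCG00000016902 (0.63), GNLY (0.57) and NKG7 (0.31). The UMIs in members and other T cells were 15 and 4 for GZMB, 6 and 5 for GNLY and 4 and 4 for NKG7. The GZMA copies together had 7 and 9. CTSW was higher there too, at 225 against 51.7 CPM, while CCL5 was lower, at 56.1 against 129 CPM.

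Free RNA bears on the low end of these values. Barcodes of 10 to 100 UMIs, which hold mostly RNA from outside cells, had 4508 CPM of CCL5, 2032 of GZMB and 2435 of GNLY in IPP, and 23.6 of KLF2. Of the gate genes, CCR7 was at 15.0 CPM in these barcodes of IPP, 0.535 in NoPP, 1.74 in JEJ and 0 in DUOD. S1PR1 was at 6.67 CPM in IPP and 2.67 in NoPP, and LEF1 at 1.43 and 1.87. The part of free CCR7 in the members' share of IPP was not tested. In IPP, a CCL5 UMI was found in 38.7% of members at a median of 4412 UMIs and in 50.9% of epithelial cells at 14871.5. These depths differ. Per UMI, CCL5 was at 1656 CPM in IPP members, or 454 CPM outside the S1PR1-only cells, and at 155 CPM in epithelial cells. Counted in UMIs, CCL5 had 522 in 224 epithelial cells and 1866 in 1171 B cells of IPP. The 111 members had 876, most of them in the 10 members with at least 10 each, and the 27 CD4 members had 7, at most 2 a cell. The part of free RNA in the members' CCL5 was not tested.

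**Figure D4:**
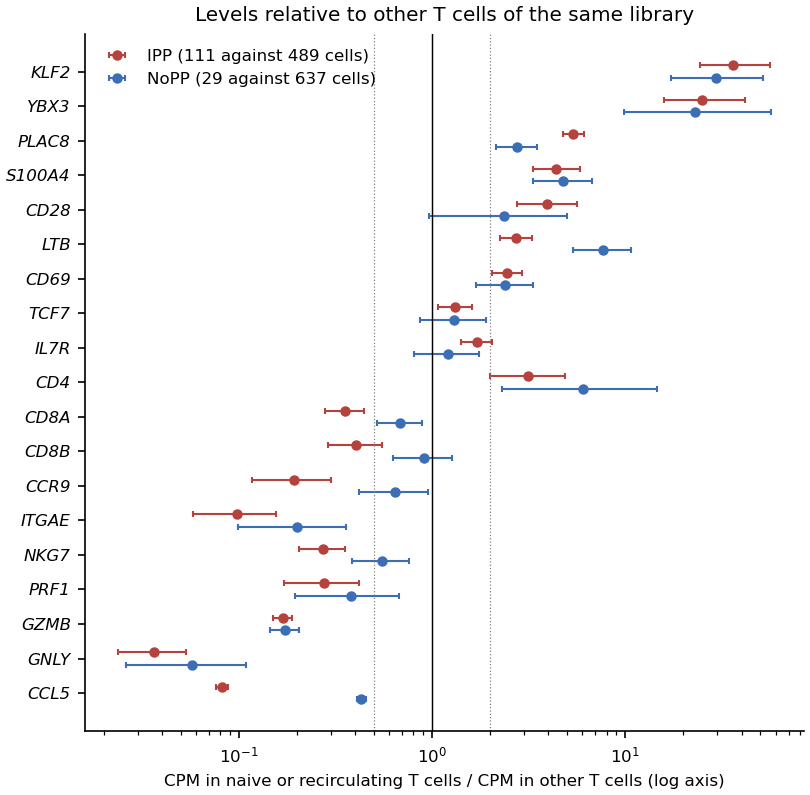
Ratio of the level in naive or recirculating T cells to that in other T cells of the same library (log axis) for 19 genes, in IPP (red) and NoPP (blue). Bars are exact 95% intervals of a ratio of Poisson counts, and dotted lines mark 2-fold. KLF2 lies at 36.2 and 29.5, and ITGAE at 0.0982 and 0.200.

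Lists of other states and cell types gave the following. Of 12 immediate early genes in IPP, 3 were higher (JUN, NR4A1 and DUSP2) and none lower, with a median ratio of 1.76, and in NoPP only DUSP2 was higher, with a median of 1.23. Of 8 heat shock genes, HSPH1 and DNAJB1 were higher in IPP and HSPD1 in NoPP. HSP70.2, a stress-induced heat shock gene outside that list, was at 248 CPM in IPP members against 48.1 CPM (5.15-fold; 3.89 to 6.85), and at 161 against 58.0 CPM in NoPP (2.77-fold; 1.71 to 4.31), with a UMI in 22 of 111 and 8 of 29 members. Immediate early and heat shock genes also respond to the isolation of cells, and that part was not tested. All 4 MHC class II genes were 2-fold lower in IPP members, with CD74 at 730 against 1695 CPM, and none of the 4 was 2-fold different in NoPP. With the gate sum lowered to 1, CD74 was higher in IPP members, with a log2 ratio of 0.34. For HLA-DRA, 27.4% of the UMIs of other T cells in IPP lay in 1 cell. The 58 ribosomal protein genes had a median ratio of 1.28 in IPP and 1.31 in NoPP, and none was 2-fold different.

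Regulatory and follicular helper genes were rare, level or lower in the members. Within CD4 cells of IPP, described below, most of those counted were lower. FOXP3, the factor of regulatory T cells, was found in 2 of 111 IPP members and 9 of 489 other T cells, and CXCR5, the follicle-homing receptor, in 1 and 16. Of 4 regulatory genes in IPP none was higher and TNFRSF18 and IKZF2 were lower, and of 5 follicular helper genes none was 2-fold different. RAG1, RAG2, PTCRA and DNTT, which mark developing T cells in the thymus, had no UMI in the members of IPP or NoPP. Of 4 NK cell genes in IPP all were lower, and NCR1 and KLRD1 had no UMI in members. The summed epithelial list was at 499 CPM in IPP members against 1987 CPM in other T cells, and at 141 against 1594 CPM in NoPP. The summed myeloid list was at 185 against 911 CPM in IPP.

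The members held both coreceptor lineages. Of the 111 IPP members, 27 had a CD4 UMI without CD8B (24.3%; 16.7 to 33.4) and 25 had CD8B without CD4 (22.5%; 15.1 to 31.4). None had UMIs of both, which allows up to 2.70% of cells with UMIs of both but sets no limit on cells expressing both, and 59 had neither. Of the 489 other T cells of IPP, 32 had CD4 (6.54%; 4.52 to 9.11) and 210 had CD8B (42.9%; 38.5 to 47.5). In NoPP, 6 of 29 members had CD4 alone (20.7%; 7.99 to 39.7) and 16 had CD8B alone (55.2%; 35.7 to 73.6), against 10 (1.57%) and 314 (49.3%) of 637 other T cells, of which 2 had both. In JEJ, 2 of 6 members and none of 236 other T cells had CD4. The share with CD4 was higher in members than in other T cells of each of these libraries, and the intervals do not overlap in IPP or NoPP. After thinning in IPP, 3 of 32 members (9.38%; 1.98 to 25.0) and 13 of 466 other T cells (2.79%; 1.49 to 4.72) had CD4, and these intervals overlap.

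KLF2, PLAC8 and IL7R were within 2-fold between CD4 and CD8B members of IPP, while CCR7, a gate gene, was at 874 CPM in CD4 members against 347 CPM in CD8B members (2.52-fold; 1.79 to 3.59). S1PR1 was at 505 against 493 CPM. KLF2 was at 617 CPM in CD4 members against 611 CPM in CD8B members (1.01-fold; 0.735 to 1.39), with a UMI in 17 of 27 and 15 of 25 cells. PLAC8 was at 1195 against 1340 CPM, and IL7R at 305 against 305 CPM. At least 2-fold different between them were 211 of 2382 genes higher in CD4 members (8.86%) and 204 lower (8.56%), while in the other T cells of IPP 317 of 2580 were higher in CD4 cells (12.3%) and 169 lower (6.55%). With 27 and 25 cells many of these counts rest on few UMIs.

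Of 4 follicular helper genes, ICOS and CD40LG were 2-fold higher in CD4 members and none was lower. CD40LG, the helper signal to B cells, was at 120 CPM in CD4 members, from 15 UMIs, against 6.94 CPM in CD8B members, from 1 (17.3-fold; 2.67 to 729). IL6R was at 176 against 13.9 CPM (12.7-fold; 3.12 to 111), and ID3, a factor of naive and resting T cells, at 96.2 against 13.9 CPM (6.93-fold; 1.54 to 63.8). S100A4 was at 329 CPM in CD4 members against 55.5 CPM in CD8B members (5.92-fold; 2.74 to 14.6), and at 58.2 against 55.1 CPM in CD4 and CD8B other T cells. GATA3, IL4R and ITGAL were 4.24-fold, 3.27-fold and 3.27-fold higher in CD4 members.

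GZMB, the granule protease, split the members by coreceptor. It was found in 24 of 25 CD8B members (96.0%; 79.6 to 99.9), with 0 to 17 UMIs per cell, a median of 8 and 1319 CPM. In CD4 members it was found in 7 of 27, at 120 CPM, 11.0-fold lower than in CD8B members (6.48 to 20.0). In CD8B other T cells it was at 3725 CPM, with a UMI in 173 of 210 cells, so its level in CD8B members was 2.82-fold lower (2.44 to 3.29). The shares of cells with it had overlapping intervals, at 82.4% (76.5 to 87.3) in CD8B other T cells, which were shallower. GNLY, by contrast, was at 48.6 CPM in CD8B members against 656 CPM in CD8B other T cells, 13.5-fold lower (6.50 to 33.8). CTSW, a protease of cytotoxic cells, was at 951 CPM in CD8B members and 225 CPM in CD4 members. In NoPP, 12 of 16 CD8B members (75.0%) had GZMB, at 1214 CPM, against 262 of 314 CD8B other T cells (83.4%), at 4601 CPM. Epithelial cells of IPP had a GZMB UMI in 33.5% of cells at over 3 times the depth of the members. Free RNA of IPP held 2032 CPM of GZMB, and its part in the members' GZMB was not tested.

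Within CD4 cells of IPP, 156 of 2520 genes were higher in members (6.19%) and 363 lower (14.4%). KLF2 was at 617 CPM in members against 0 UMIs in the 32 CD4 other T cells, at least 31.8-fold higher when CD4 other T cells are given 3 UMIs. YBX3 was at least 12.8-fold higher by the same bound, and IL7R was at 305 against 71.1 CPM (4.29-fold; 2.15 to 9.30). Of 6 follicular helper genes, 4 were 2-fold lower in members (PDCD1, ICOS, SH2D1A and TOX), as were 4 of 5 regulatory genes (CTLA4, TNFRSF18, IKZF2 and BATF), and none was higher. PDCD1, the inhibitory receptor PD-1, was at 24.1 CPM in members against 446 CPM, TNFRSF18 at 24.1 against 485 CPM, CTLA4 at 40.1 against 187 CPM and SH2D1A, which follicular helper cells need, at 8.02 against 233 CPM. LAG3 was 16.5-fold lower (4.29 to 141). The member values of these 5 genes rest on 1 to 5 UMIs each. LTB was lower too, at 297 against 679 CPM. GZMB was higher in CD4 members, at 120 against 25.9 CPM, from 15 and 4 UMIs (4.65-fold; 1.48 to 19.3).

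Within CD8B cells of IPP, 180 of 2393 genes were higher in members (7.52%) and 219 lower (9.15%). KLF2 was at 611 CPM in members against 12.1 CPM in CD8B other T cells (50.5-fold; 25.4 to 114), and YBX3 at 340 against 2.69 CPM, from 2 UMIs (126-fold; 33.2 to 1074). CD28 was at 90.3 against 25.5 CPM. TCF7 was at 174 against 215 CPM and IL7R at 305 against 282 CPM, both within 2-fold. CCR9 was at 34.7 against 281 CPM, 8.10-fold lower (3.41 to 25.2), ITGAE at 83.3 against 438 CPM, and KLRK1, the activating receptor NKG2D, at 34.7 against 343 CPM. The member against other contrast in KLF2, YBX3 and ITGAE was thus present without the CD4 cells.

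**Figure D5:**
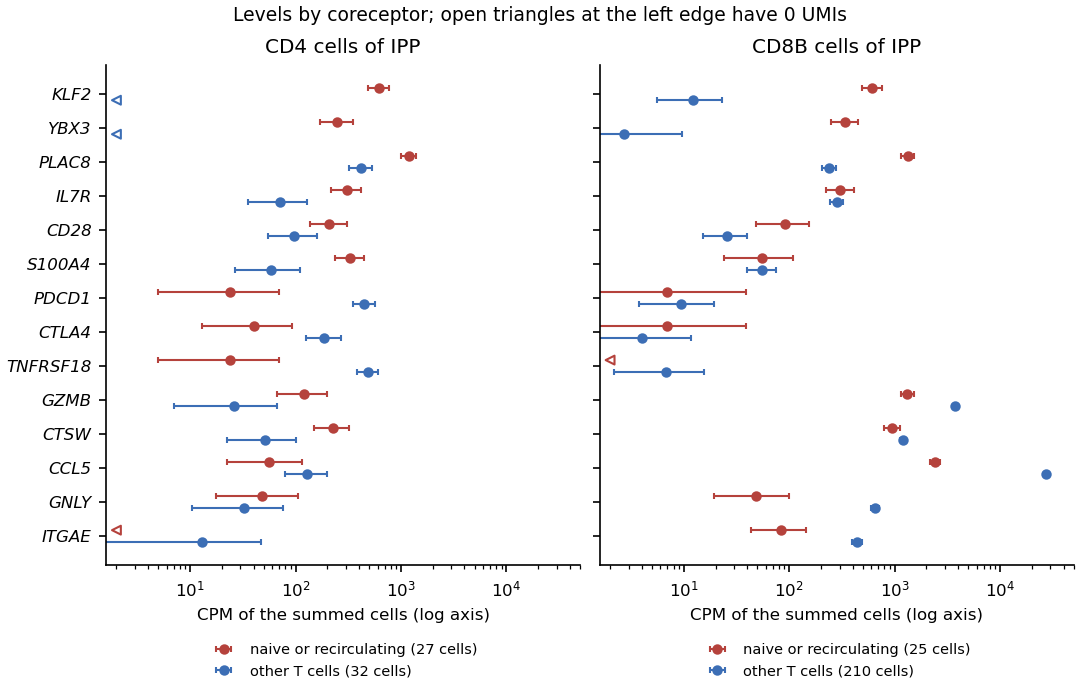
Level of 14 genes (CPM of the summed cells, log axis) in CD4 cells (left) and CD8B cells (right) of IPP, for naive or recirculating T cells (red) and other T cells (blue). Bars are exact 95% Poisson intervals, and open triangles stand for 0 UMIs. KLF2 is at 617 and 611 CPM in CD4 and CD8B members, and GZMB at 120 and 1319 CPM.

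Between the ileal libraries, 80 of 2345 genes were at least 2-fold higher in IPP members than in NoPP members (3.41%) and 117 lower (4.99%), and among other T cells 41 of 2576 were higher (1.59%) and 13 lower (0.505%). With 29 NoPP members, intervals are wide. In simulated counts at these members' UMI totals, without spread between cells, 4.115% of unchanged genes passed 2-fold in either direction. The other T cells numbered 489 and 637, so their counts of genes cannot be set against those of the members. The highest ratios were those of CST3, a protease inhibitor abundant in myeloid cells, and the metallothionein MT1A. CST3 was at 138 CPM in IPP members and 6.69 CPM in NoPP members, with 42.5% of the IPP UMIs in 1 cell, and its log2 ratio was 0.69 without cells holding RNA of other types. MT1A was at 2513 and 141 CPM, with 73.4% of the IPP UMIs in 1 cell, and its log2 ratio was 2.24 with each gene's highest cell left out. KLF2 was at 552 CPM in IPP members and 301 CPM in NoPP members (1.83-fold; 1.34 to 2.57). Its log2 ratio of 0.87 was 0.22 with a gate sum of 3 and 0.39 without the S1PR1-only cells, and it turned to -1.61 after thinning, from 14 and 8 UMIs. TCF7 was at 274 and 201 CPM. PLAC8 was at 1312 and 542 CPM (2.42-fold; 1.92 to 3.09), and IL6R at 108 and 13.4 CPM, from 2 UMIs in NoPP.

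CCL5, CCR9, CD8A and CD8B were lower in IPP members than in NoPP members. CCL5 was at 1656 CPM in IPP members and 9369 CPM in NoPP members, 5.66-fold lower (5.19 to 6.16), against 20240 and 21760 CPM in other T cells. CCR9 was 4.38-fold lower (2.37 to 8.19), CD8A 2.50-fold lower (1.76 to 3.55) and CD8B 2.83-fold lower (1.77 to 4.49). NoPP members held more S1PR1-only cells, 8 of 29 against 9 of 111, and more CD8B cells. Without the S1PR1-only cells, CCL5 had a log2 ratio of -3.23, with 68.2% of the NoPP UMIs left in 1 cell, and within CD8B members -2.54. Over all settings it lay between -4.09, with a gate sum of 3, and -1.31, with 2 UMIs of CCR7 and LEF1 alone. GZMA_ENSSSCG00000016902 was 6.16-fold lower in IPP members, with 53.2% of the NoPP UMIs in 1 cell, and was higher without the S1PR1-only cells, with a log2 ratio of 1.21.

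The members of the upper intestine were few. In JEJ, the 6 members had S1PR1 in every cell, with 1 to 10 UMIs, KLF2 in 5 cells and CCR7 and LEF1 in 4. CCL5 was at 75.1 CPM in them, from 2 UMIs, against 23982 CPM in other T cells of JEJ, and GZMB at 338 against 7047 CPM. In DUOD, the first of the 2 members had 1 UMI each of S1PR1, LEF1, KLF2 and CCL5, and the second had 4 S1PR1, 151 CCL5 and 31 GZMB UMIs and no KLF2. JEJ thus held cells with the KLF2 and low CCL5 of the ileal members, and DUOD at most 1.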

How the data were processed

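The files hold raw UMI counts per gene and barcode, made by the authors with Cell Ranger 4.0.6 (the header per the file headers, the version per the submitters' processing notes), for 25880 genes in 1 matrix per region. The genome build is not given in the sources used here. Library totals were 44726845 to 91813234 UMIs. Barcodes were kept with at least 1000 UMIs, 500 genes and at most 25% of UMIs from 13 mitochondrial genes, and 121 NoPP barcodes were dropped whose UMIs in DUOD were 10 times as many or more. Doublets were not called. Leaving out cells above 3 times the median UMIs was tried in their place.

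UMIs were summed over the cells of a class and divided by the class total (CPM). Ratios carry exact conditional Poisson intervals, and shares carry Clopper-Pearson intervals, both at 95% and covering counting error only. A gene was called at 2-fold and 50 CPM in the mean of both classes. Mitochondrial and gate genes were left out, and a class at 0 was set to 3 UMIs. A comparison needed 30 members, or 20 cells a side for subsets. With 1 sample a region there is no test. The members, gene lists and comparisons were chosen with earlier results of these data known. Named genes are list members and up to 12 genes a direction of each comparison. One item is not reported here. Background classes lacked CD3E, with 2 or more UMIs of CD79B and MS4A1 (B cells), or of EPCAM and KRT8 without B cell genes (epithelial cells). The calculations used Python 3.11.15, numpy 2.4.6, scipy 1.17.1 and pandas 2.3.3, and were tested on simulated data.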

Additional observations from a re-analysis of the deposited data

Results flagged for a closer look

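T cells outside the members also carried the gate genes. Among T cells with a TRDC UMI, which the rule leaves out as possible γδ T cells, some met every other condition. They were 4 of 102 in JEJ (3.92%), 9 of 319 in IPP (2.82%) and 16 of 401 in NoPP (3.99%). Among T cells without TRDC the members' shares were 2.48%, 18.5% and 4.35%. The 9 of IPP had KLF2 in 4 cells, at 330 CPM, and CCL5 at 7333 CPM, and the 16 of NoPP had KLF2 in 8 cells, at 358 CPM, and CCL5 at 9854 CPM. In IPP, 10 CD3E cells failed only through B cell genes, 3 of them through 1 UMI. Dividing T cells past the gate sum numbered 7 in IPP and 5 in NoPP.

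TUBB, a tubulin gene, was 0.458 times as high in IPP members as in NoPP members (0.282 to 0.754), but 1.33 times as high in other T cells of IPP as in other T cells of NoPP (1.06 to 1.65). The difference between these ratios was not tested, and 24.1% of the TUBB UMIs of NoPP members lay in 1 cell.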

How the results depend on the processing

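Each region is 1 library, IPP is the only library with 30 members, and the NoPP class is small. No paired analysis was possible because the matrices carry no replicate marks. Leaving out libraries in turn gave no value, since IPP was the only one that qualified, and CCR7 or LEF1 members were not compared gene-wide with S1PR1-only members, which numbered 9 and 8. Of the log2 ratios of single genes under the alternatives, 860 of members against other T cells, 431 of IPP against NoPP members and 102 of CD4 against CD8B members stayed within the main interval, 182, 57 and 2 moved outside it, and 17, 4 and 0 of genes past 2-fold turned. The cause of each move was not tested unless stated.

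At a mitochondrial limit of 10%, the shares were 0% (DUOD), 5.61% (JEJ), 32.8% (IPP) and 10.8% (NoPP), with 180 genes lower in IPP than NoPP members. At a gate sum of 3 they were 15.3% in IPP and 2.40% in NoPP, with 131 genes higher and 266 lower, and at a sum of 1, 25.0% and 6.91%, with 58 lower. With 2 UMIs of CCR7 and LEF1 alone they were 0% in DUOD and 2.40% in NoPP. With TRDC cells allowed IPP had 13.1%, and 50 genes were higher than in NoPP. Thinned to 1000 UMIs the shares were 0% in DUOD, 6.43% in IPP and 1.10% in NoPP, with 389 genes higher and 369 lower in members than other T cells and 768 lower in IPP than NoPP members, from 32 and 6 cells.

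For members against other T cells, IPP against NoPP members, and CD4 against CD8B members, a total without mitochondrial, ribosomal and the 10 highest genes, which lifts every CPM, gave 115 higher and 212 lower, 201 and 252, and 380 and 437. A minimum of 10 CPM gave 287 and 709, 708 and 750, and 1044 and 950. No minimum, with genes at 3 UMIs or fewer in both classes left out, gave 553 and 1441, 708 and 666, and 684 and 774. Members against other T cells gave 156 higher and 363 lower within CD4 cells, 180 and 219 within CD8B cells, and 29 and 64 when both ileal libraries had to pass. IPP against NoPP gave 256 and 297 within CD8B members.

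The log2 ratios past 2-fold that turned, in members against other T cells of IPP, were CD83 at -2.04 with the 10% mitochondrial limit, CD74 at 0.34 and HLA-DRA at 0.81 with a gate sum of 1, CD69 at -0.29 and TXNIP at 0.11 when thinned, and TFF3 at 0.26 without cells holding RNA of other types. Within CD4 cells they were GNLY at 0.57, GZMA_ENSSSCG00000016902 at 0.63, GZMB at 2.22, IL6R at -0.037, LTB at -1.19, NKG7 at 0.31 and TRAT1 at 0.96. Within CD8B cells they were AGR2 at 1.37, IL6R at -0.80, REG4 at 1.05 and TXNIP at 1.01. Between IPP and NoPP members they were GZMA_ENSSSCG00000016902 at 1.82 with a gate sum of 3, 0.28 with CCR7 and LEF1 alone and 1.21 without S1PR1-only cells, and, when thinned, CD28 at -0.83. Of genes within 2-fold, TCF7 changed sign in members against other T cells within CD8B cells (-0.31). Between IPP and NoPP members KLF2 did when thinned (-1.61), and GZMB, at -0.46, was at 0.044 to 0.76 under 6 settings.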
